A study of Mus musculus with 12 samples.

Results

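The genes described here are 10 components of the machinery that decides whether a cell leaves the G1 phase of the cell cycle, measured by RNA sequencing in mouse regulatory T cells (Treg). They were taken by name from a table of 36222 genes: the D-type cyclins Ccnd2 and Ccnd3, the kinases Cdk4 and Cdk6, the Cip/Kip inhibitors Cdkn1a (p21) and Cdkn1b (p27), the Ink4 inhibitors Cdkn2c (p18) and Cdkn2d (p19), the pocket protein gene Rb1, and Btg1, an antiproliferative gene of the BTG/TOB family. Each name matched a single gene identifier. No exon of the 10 genes shared bases with another gene on its own strand in the mm9 annotation, while Ccnd3, Cdk4, Cdk6 and Rb1 overlapped genes on the opposite strand, which strand-aware counting keeps apart.

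The 12 libraries formed 4 groups of 3, and each came from YFP+ Treg sorted out of the splenic CD4+ T cells of an individual mouse. WT mice carried the Foxp3-YFP-Cre allele, from which Foxp3 drives both YFP and Cre, and cKO mice carried it together with floxed alleles of Ikzf1, which encodes Ikaros, a zinc finger transcription factor. The Cre was therefore present in all 4 groups, on a B6 background. RNA was taken either directly ex vivo or after 4 h on plate-bound anti-CD3 and anti-CD28 at 1 µg/ml each. The mice of all 4 groups were listed as 6 to 8 weeks old, an age that the paper states for those used ex vivo. Deletion of Ikzf1 thus follows Foxp3 expression, and the sort follows YFP from the same locus.

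As background, D-type cyclins bind CDK4 or CDK6, and the resulting kinases phosphorylate the retinoblastoma protein RB1, which then releases E2F transcription factors that drive the genes of S phase. Ink4 proteins bind CDK4 and CDK6 and keep cyclin D away, whereas the Cip/Kip proteins p21 and p27 inhibit the cyclin E and cyclin A kinases and also help to assemble cyclin D complexes. T cells at rest hold p27 and BTG proteins at high levels, and antigen receptor and CD28 signals are known to lower them before division. Transcripts were measured here, not proteins, and in bulk RNA a lower level in all cells and a smaller share of cells with a gene on cannot be told apart.

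Each library held between 8208659 and 20247649 reads in genes, fewest in the stimulated cKO group, at 8208659 to 10930376. A single gene model, Gm10800, took 17.7 to 39.8% of the TPM in WT and 20.4 to 24.4% in cKO libraries ex vivo. After stimulation it took 32.6 to 44.4% in WT and 42.9 to 55.9% in cKO libraries, and since TPM sum to a fixed total this lowers the other genes by amounts that differ between libraries. Values below are therefore scaled TPM, the deposited TPM divided by a factor per library between 0.732 and 1.21 that was estimated from the bulk of genes. Ikzf1 checked the labels, at 104 to 114 scaled TPM in WT against 33.0 to 42.1 in cKO ex vivo, and 66.7 to 71.1 against 23.3 to 30.1 after stimulation, with reads summed over the whole gene. It fell by 1.52 (log2, adjusted p 5.45e-05 by limma) and by 1.29 (adjusted p 0.000161) in cKO. The 7 Treg markers, Foxp3 among them, summed to between 912 and 2455 TPM in every library. The 4 B cell markers summed to 9.49 to 12.7 TPM in WT and 16.1 to 22.0 TPM in cKO ex vivo, and to 8.65 to 13.6 and 12.5 to 16.9 TPM after stimulation, while the 4 myeloid markers summed to at most 13.5 TPM, the 4 CD8 T and NK markers to at most 21.8 TPM and the 5 erythroid and platelet markers to at most 11.04 TPM in any library. None of these markers lacked reads in a whole group except 1 of the 5 erythroid and platelet genes in WT stimulated libraries. Of the B cell markers only Cd79b was tested. In cKO it was higher after stimulation by 0.96 (log2, adjusted p 0.0283 by limma), and its difference of 0.70 ex vivo was not called. The part of the B cell difference in the genotype results was not tested. Library WT ex vivo 3 came from a female mouse by its Xist level of 179 TPM, against at most 1.36 TPM in the other 11 libraries.

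The promoters of 8 of the 10 genes were matched by symbol in a RefSeq table (build GRCm38.p6), as 11 windows from 250 bases before to 50 bases after a transcription start. Ccnd2 and Rb1 had no window. The 4 shown are those of the kinase pair Cdk4 and Cdk6, of Cdkn1a, the gene with the largest genotype difference below, and of Btg1, the gene with the largest response to stimulation. All are on the plus strand, at chr10:127063285-127063584 for Cdk4, chr5:3343643-3343942 for Cdk6, chr17:29093519-29093818 for the second of 2 Cdkn1a starts and chr10:96616751-96617050 for Btg1. Capitals mark every match, on either strand, to the E-box CACGTG, the E2F forms TTTCGCG and TTTGGCG, the Ikaros core TGGGAA, the forkhead motif TGTTTAC, the AP-1 motif TGANTCA, the CRE TGACGTCA and the GC box GGGCGG.
Cdk4: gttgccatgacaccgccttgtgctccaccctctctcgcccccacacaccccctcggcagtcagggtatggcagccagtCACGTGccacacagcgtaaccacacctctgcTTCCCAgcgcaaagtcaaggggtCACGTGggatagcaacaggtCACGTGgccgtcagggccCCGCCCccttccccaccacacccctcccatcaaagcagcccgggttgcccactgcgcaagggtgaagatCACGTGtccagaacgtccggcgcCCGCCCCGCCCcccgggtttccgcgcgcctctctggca
Cdk6: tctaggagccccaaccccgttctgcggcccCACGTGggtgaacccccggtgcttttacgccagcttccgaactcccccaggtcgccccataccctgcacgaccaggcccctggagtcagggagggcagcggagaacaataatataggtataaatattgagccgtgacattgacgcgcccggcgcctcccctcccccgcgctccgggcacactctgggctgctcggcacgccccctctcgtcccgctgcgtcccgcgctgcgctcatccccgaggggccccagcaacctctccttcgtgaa
Cdkn1a: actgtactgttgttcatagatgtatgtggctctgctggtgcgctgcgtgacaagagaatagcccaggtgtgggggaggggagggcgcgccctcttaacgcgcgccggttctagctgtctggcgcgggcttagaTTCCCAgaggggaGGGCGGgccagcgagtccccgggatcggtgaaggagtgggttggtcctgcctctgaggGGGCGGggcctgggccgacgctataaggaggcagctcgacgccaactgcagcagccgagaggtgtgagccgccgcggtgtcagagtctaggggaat
Btg1: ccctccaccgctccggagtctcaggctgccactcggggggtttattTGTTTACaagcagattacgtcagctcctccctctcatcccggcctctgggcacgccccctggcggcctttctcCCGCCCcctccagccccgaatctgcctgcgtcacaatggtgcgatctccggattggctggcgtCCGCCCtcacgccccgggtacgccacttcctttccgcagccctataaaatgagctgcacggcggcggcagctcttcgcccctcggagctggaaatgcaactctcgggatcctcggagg

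The Cdk4 window held 4 E-boxes, 3 GC boxes (the last 2 sharing a base) and 1 Ikaros core, and the Cdk6 window held 1 E-box and no GC box. An E-box occurred in 7.15% of all 32851 windows in the table, a GC box in 35.7% and the Ikaros core in 25.6%. The Cdkn1a window held 1 Ikaros core and 2 GC boxes, and the other Cdkn1a start had no match to any of the 8 motifs. An Ikaros core also occurred in the Cdkn2d window. The Btg1 window held 1 forkhead motif, present in 3.65% of windows, and 2 GC boxes. The forkhead motif also occurred in 1 of the 2 Ccnd3 windows, and an E2F form, TTTCGCG, in 1 of the 2 Cdkn2c windows (0.849% of all windows). GC content was 59.3 to 73.3% in 9 of the 11 windows, above the median of 52.7% over all windows, and it was 54.7% at the first Cdkn1a start and 44% at 1 Cdkn2c start. These matches are descriptions of the letters in the windows.

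Within WT ex vivo libraries the 10 genes spanned more than 2 orders of magnitude. Btg1 was highest at 583 ± 59.8 scaled TPM (SD, n = 3 here and below), followed by Cdkn1b at 120 ± 15.7 and Ccnd2 at 101 ± 11.97, whose libraries overlapped, and then by Ccnd3 at 62.3 ± 8.76. Cdk4 (30.6 ± 6.71), Rb1 (28.8 ± 0.223) and Cdk6 (26.1 ± 2.68) came next, and the libraries of Cdk4 overlapped those of both others while Rb1 lay above Cdk6. Cdkn1a stood at 13.6 ± 2.13, Cdkn2c at 5.64 ± 0.698 and Cdkn2d at 1.85 ± 1.06 scaled TPM. Over all 12 libraries Btg1 ranked 98 of 36222 genes by mean TPM, whereas 88.3% of genes lay above Cdkn2d.

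Cdkn2d was the only member with a highest group mean under 5 TPM, the minimum for testing, so 9 of the 10 genes were tested. It had between 0 and 37 reads per library and at most 2.86 TPM, in a range where 1555 olfactory and vomeronasal receptor genes, which T cells do not use, had their 95th percentile at 1.47 to 2.72 TPM per library. Its highest values were in WT ex vivo libraries 1 and 3, with 34 and 37 reads, against 6 in WT ex vivo 2, and its lowest were 5, 0 and 1 reads in the stimulated cKO libraries. No change was called from it.

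**Figure D1:**
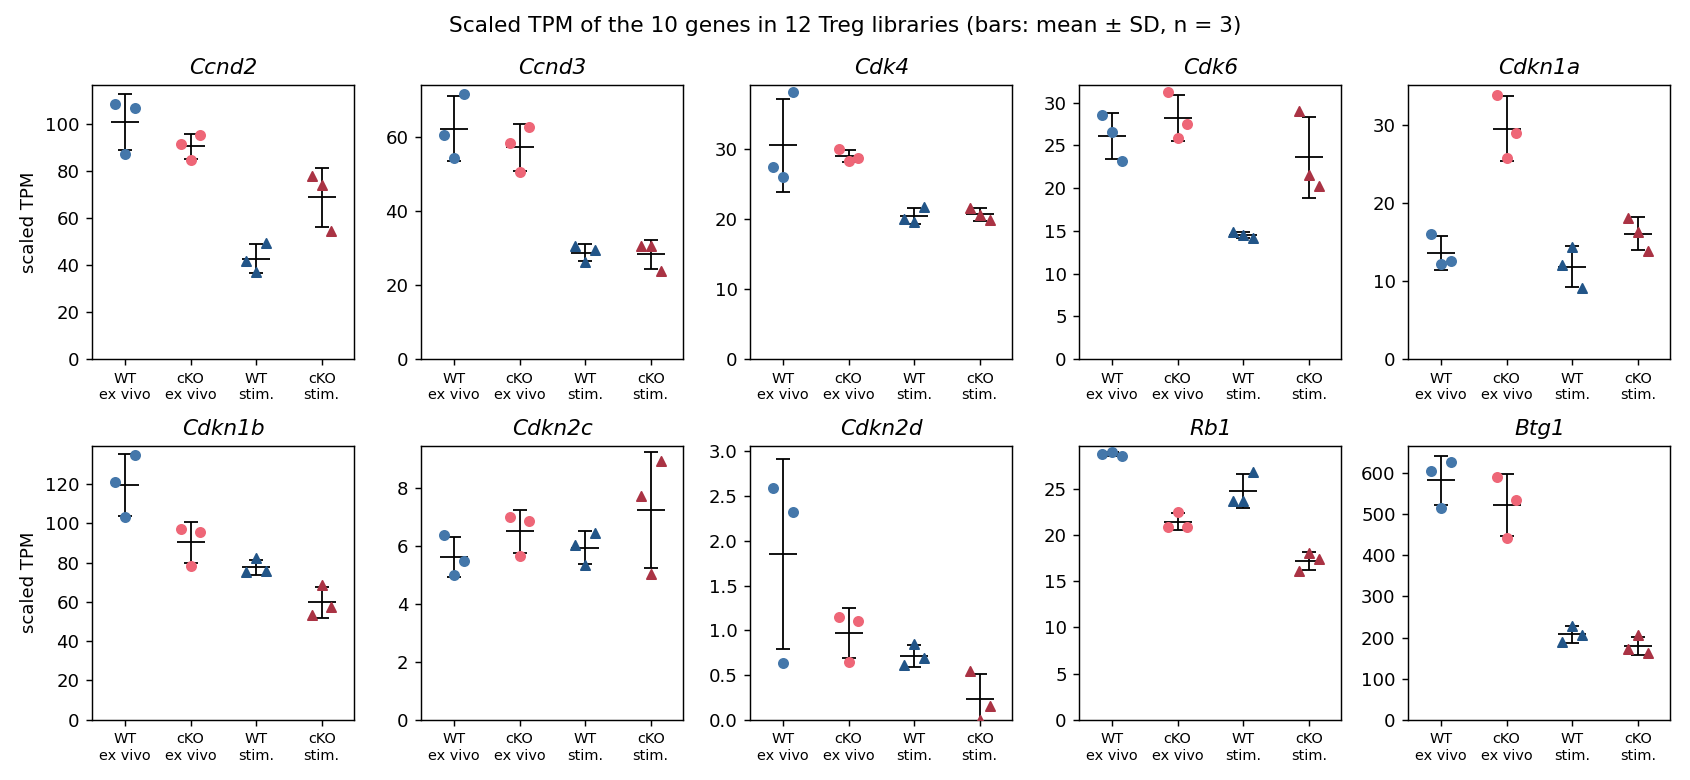
Scaled TPM (vertical axis, linear from 0) of the 10 genes in each of the 12 libraries, by group. Points are libraries (circles ex vivo, triangles stimulated) and bars are means ± SD of 3. Btg1 fell from 441 to 628 ex vivo to 163 to 228 after stimulation, and Cdkn1a stood at 25.8 to 33.9 in cKO ex vivo libraries against 9.09 to 18.1 in all other libraries.

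The first comparison asks whether the loss of Ikaros changes these genes in Treg taken directly ex vivo. Cdkn1a, the p21 gene, was about 2-fold higher in cKO, Rb1 was lower, and the cyclins, the kinases and Btg1 did not pass the test. Of the 9 genes tested, 1 was called higher, where 3.62% of the 13318 genes tested were called higher, and 1 was called lower, where 1.67% were. The members' median difference was -0.12 (log2), against -0.01 over all genes tested.

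Cdkn1a (ENSMUSG00000023067, mm9 chromosome 17, 29227924 to 29237667, plus strand) stood at 16.1, 12.2 and 12.6 scaled TPM in the WT ex vivo libraries and at 33.9, 25.8 and 29.1 in the cKO ex vivo libraries, from 201 to 1030 reads per library. Every cKO library lay above every WT library, in deposited TPM too. The fitted difference was 1.07 (log2, SE 0.17, 95% interval 0.69 to 1.44, adjusted p 0.00535 by limma with Benjamini-Hochberg adjustment), or 2.10-fold. It held in all 12 leave-one-out fits, each without 1 library, at adjusted p-values no higher than 0.0282, and without WT ex vivo 3, the library from the female mouse, it was 1.02 (adjusted p 0.0271). When genes from 1 TPM were tested the difference was 1.06 and the adjusted p 0.221. The relative Cip/Kip level, Cdkn1a to Cdkn1b within a library, was 0.133, 0.118 and 0.0933 in WT and 0.350, 0.330 and 0.304 in cKO.

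Cdkn1b (ENSMUSG00000003031, mm9 chromosome 6, 134870419 to 134875531, plus strand), the p27 gene, stood at 121, 103 and 135 scaled TPM in WT ex vivo and at 96.9, 78.1 and 95.7 in cKO ex vivo. The groups did not overlap on this scale but did in deposited TPM (83.6 to 133 against 91.9 to 106). The difference of -0.40 (SE 0.13, 95% interval -0.68 to -0.12) did not pass, with an adjusted p of 0.109, and it was called under 1 of 9 alternative settings, quantile normalization (adjusted p 0.0329).

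Rb1 (ENSMUSG00000022105, mm9 chromosome 14, 73583480 to 73725629, minus strand) stood at 28.8, 29.0 and 28.6 scaled TPM in WT ex vivo and at 20.9, 22.5 and 20.9 in cKO ex vivo. The libraries of each group lay close together and the groups did not overlap, although in deposited TPM they did (23.5 to 31.7 against 22.0 to 26.5). Rb1 fell by 0.41 on the log2 scale (SE 0.08, adjusted p 0.0107 by limma), or 1.33-fold. Without WT ex vivo 3 the difference was -0.42 (adjusted p 0.0338). Without cKO ex vivo 3 the adjusted p was 0.0525, with deposited TPM 0.670 and with genes from 1 TPM 0.647.

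The cyclin and kinase genes ex vivo were measured with intervals that reach from small falls to small rises. Ccnd2 differed by -0.15 (95% interval -0.48 to 0.18), Ccnd3 by -0.12 (-0.41 to 0.18), Cdk4 by -0.05 (-0.32 to 0.22) and Cdk6 by 0.11 (-0.18 to 0.39). Btg1 differed by -0.16 (-0.47 to 0.15) and Cdkn2c, the p18 gene, by 0.18 (-0.21 to 0.57). The adjusted p-values of these 6 genes lay between 0.631 and 0.904. Without WT ex vivo 3 the Cdk4 difference was 0.11 (adjusted p 0.585 by limma). Deposited TPM gave positive differences for Ccnd2 (0.09), Ccnd3 (0.12), Cdk4 (0.18) and Btg1 (0.08), on a scale where the median gene shifted by 0.22 relative to scaled TPM.

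The second comparison asks the same after 4 h of stimulation. Ccnd2 and Cdk6, a cyclin and its kinase partner, were each about 1.6-fold higher in cKO than in WT, and Rb1 was again lower, while the libraries of their paralogs Ccnd3 and Cdk4 overlapped between genotypes. Of the 9 genes 2 were called higher, where 3.3% of all genes tested were, and 1 was called lower, where 3.63% were. The members' median difference was 0.02, against -0.03 over all genes tested.

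Ccnd2 (ENSMUSG00000000184, mm9 chromosome 6, 127075797 to 127101066, minus strand) stood at 41.8, 37.0 and 49.3 scaled TPM in WT stimulated and at 77.7, 74.1 and 54.5 in cKO stimulated libraries, from 1625 to 3188 reads. The cKO libraries lay above the WT libraries, with cKO stimulated 3, the shallowest library, nearest to them, and in deposited TPM this library (39.9) fell within the WT range of 34.6 to 59.7. The difference was 0.67 (SE 0.15, 95% interval 0.34 to 1.00, adjusted p 0.0237 by limma), or 1.59-fold. It held in 8 of 12 leave-one-out fits and reached an adjusted p of 0.111 without WT stimulated 2. It was also lost without WT stimulated 1, cKO stimulated 1 or cKO stimulated 2, and under 4 of 9 alternative settings: genes from 1 TPM, no filter, deposited TPM and only the groups compared (adjusted p 0.0701).

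Cdk6 (ENSMUSG00000040274, mm9 chromosome 5, 3343893 to 3523218, plus strand) stood at 14.9, 14.5 and 14.2 scaled TPM in WT stimulated and at 29.0, 21.6 and 20.2 in cKO stimulated libraries. The WT values were tight and all below the cKO values, while in deposited TPM the groups overlapped (13.6 to 17.2 against 14.8 to 30.6). The difference was 0.65 (SE 0.13, 95% interval 0.36 to 0.93, adjusted p 0.0140 by limma), or 1.56-fold. It held in 10 of 12 leave-one-out fits and was lost without WT stimulated 2 or WT stimulated 3, where the adjusted p reached 0.0580. Omitting cKO stimulated 3, the library with the highest Gm10800 share, gave Ccnd2 and Cdk6 differences of 0.85 and 0.77 (adjusted p 0.00700 and 0.00999).

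Ccnd3 (ENSMUSG00000034165, mm9 chromosome 17, 47642000 to 47736632, plus strand) stood at 30.5, 26.1 and 29.6 scaled TPM in WT stimulated and at 30.6, 30.6 and 23.9 in cKO stimulated libraries, a difference of -0.03 (95% interval -0.32 to 0.27). Cdk4 (ENSMUSG00000006728, mm9 chromosome 10, 126500590 to 126504976, plus strand) stood at 20.05, 19.6 and 21.8 against 21.7, 20.5 and 19.9, a difference of 0.02 (-0.25 to 0.29). The groups overlapped for both genes.

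Ratios within a library do not depend on any scaling. Ccnd2 to Ccnd3 was 1.37, 1.42 and 1.66 in WT stimulated and 2.54, 2.42 and 2.28 in cKO stimulated libraries, against 1.49 to 1.79 in WT and 1.51 to 1.67 in cKO ex vivo. The stimulated cKO libraries thus stood above the other 9. Cdk4 to Cdk6 was 1.35, 1.34 and 1.53 in WT stimulated and 0.747, 0.951 and 0.984 in cKO stimulated libraries, and 0.962 to 1.09 in cKO ex vivo. In WT ex vivo this ratio was 0.961 and 0.981 in libraries 1 and 2 but 1.65 in library 3, the library from the female mouse. No test was made of the ratios, and a Cdkn2c to Cdkn2d ratio is not given because Cdkn2d had 0 reads in 1 library.

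**Figure D2:**
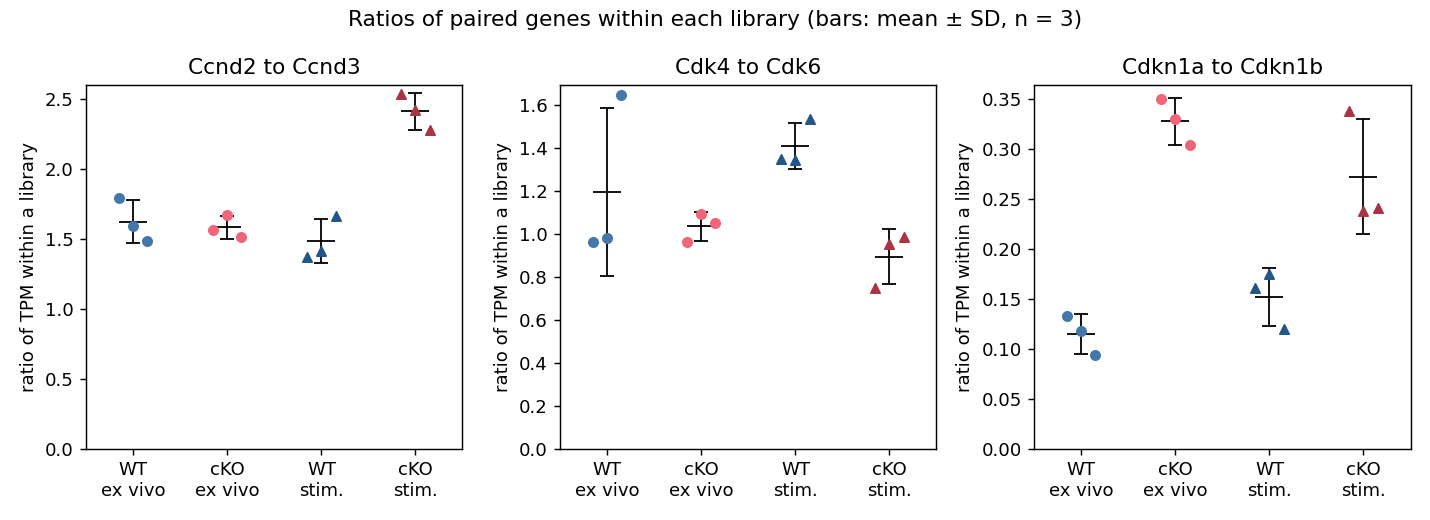
Ratio of TPM within each library (vertical axis, linear from 0) for Ccnd2 to Ccnd3, Cdk4 to Cdk6 and Cdkn1a to Cdkn1b, by group, with means ± SD of 3. Ccnd2 to Ccnd3 was 2.28 to 2.54 in cKO stimulated libraries and 1.37 to 1.79 in the others, and Cdkn1a to Cdkn1b was 0.237 to 0.350 in cKO and 0.0933 to 0.175 in WT libraries.

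Rb1 stood at 23.7, 23.6 and 26.8 scaled TPM in WT stimulated and at 16.1, 18.1 and 17.4 in cKO stimulated libraries. The groups did not overlap on either scale. Rb1 fell by 0.50 on the log2 scale (SE 0.08, adjusted p 0.00301 by limma), or 1.41-fold, and was called in all 12 leave-one-out fits. With genes from 1 TPM the adjusted p was 0.137.

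Of the inhibitors after stimulation, Cdkn1a stood at 12.04, 14.4 and 9.09 scaled TPM in WT and at 18.1, 16.3 and 13.8 in cKO libraries, which overlapped, and its difference of 0.43 (SE 0.17, adjusted p 0.161) did not pass. Cdkn1b stood at 75.0, 82.2 and 75.9 in WT and at 53.5, 68.6 and 57.4 in cKO libraries without overlap, a difference of -0.38 (SE 0.13, adjusted p 0.105) that voom on the reads called at 0.0450 and the fit without cKO stimulated 2 at 0.0488. Cdkn2c (ENSMUSG00000028551, mm9 chromosome 4, 109333481 to 109339794, minus strand) differed by 0.22 (95% interval -0.17 to 0.60) and Btg1 by -0.20 (-0.51 to 0.10).

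**Figure D3:**
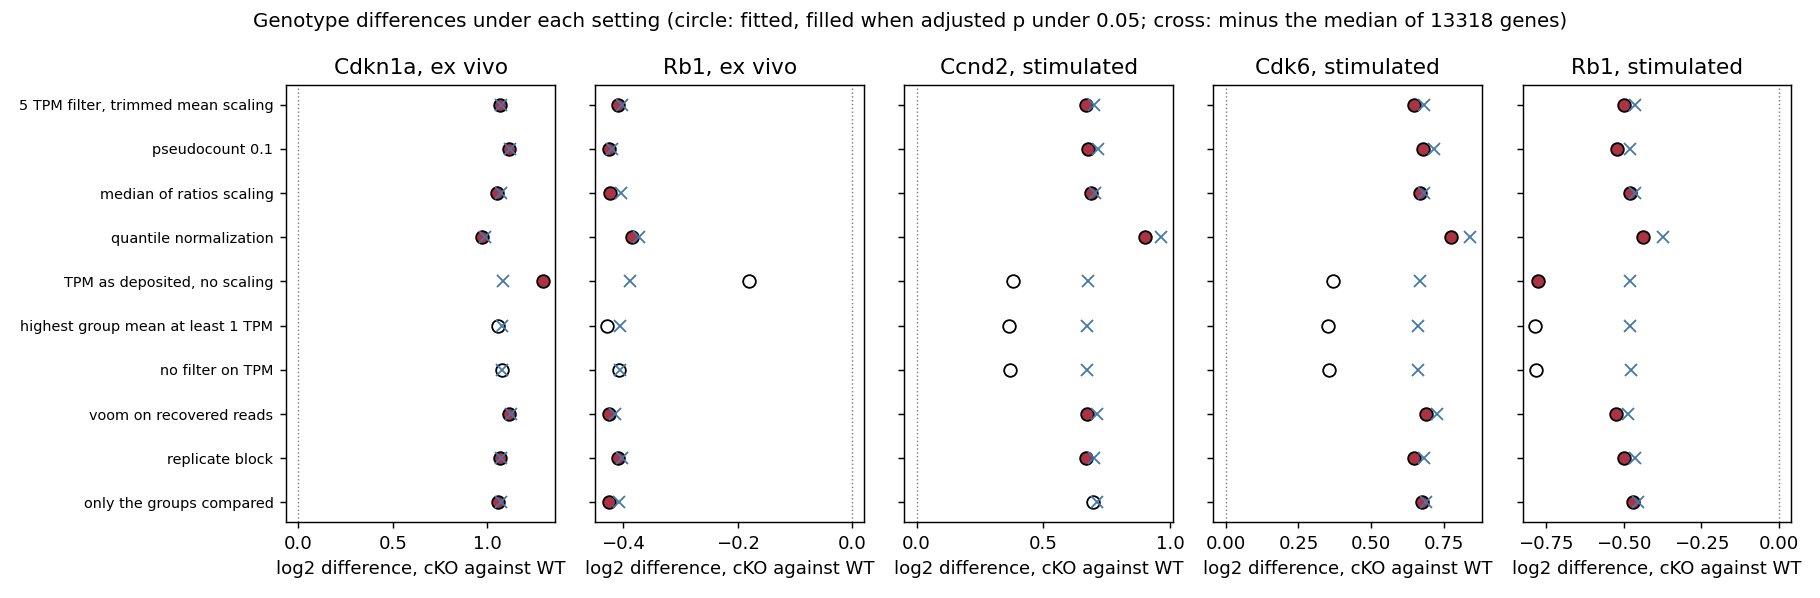
Difference of cKO against WT (horizontal axis, log2) for the 5 genotype calls under the fit reported and 9 alternative settings. Circles are fitted values, filled where the adjusted p was under 0.05, and crosses are the same values minus the median of the 13318 genes. For Ccnd2 after stimulation the crosses stood at 0.70 in the fit reported, 0.68 with deposited TPM and 0.67 with genes from 1 TPM, where the circles were at 0.67, 0.38 and 0.36.

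The genotype calls depended on how libraries were scaled and on how many genes of low expression were tested with them. With genes from 1 TPM none of the 9 was called in either genotype comparison by limma. With deposited TPM 1 was called in each, Cdkn1a ex vivo and Rb1 after stimulation. In the fit reported 3 of the 9 ex vivo and 5 after stimulation had an unadjusted p under 0.05. Over all 13318 genes tested 2384 and 3166 did. Ex vivo the factors estimated from genes down to 1 TPM moved the median of the 13318 genes by -0.01, and deposited TPM moved it by 0.22. For the comparison after stimulation the same 2 settings moved the median by -0.27 and -0.26. Relative to that median the sizes changed little: Cdk6 stood 0.68 above it in the fit reported, 0.66 with genes from 1 TPM and 0.67 with deposited TPM, and Rb1 stood -0.46, -0.48 and -0.48 from it.

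The third question is how these genes in WT Treg differ after 4 h of stimulation from the ex vivo level. In neither genotype was a group cultured for 4 h without anti-CD3 and anti-CD28. Stimulation can therefore not be told apart from time in culture, here and in cKO. Btg1, both cyclins, both kinases and Cdkn1b were lower after 4 h, and none of the 9 was higher. These 6 genes called lower compare with 19.3% of all genes tested that were called lower and 12.7% called higher. The members' median difference was -0.61, against 0.00 over all genes tested.

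Btg1 (ENSMUSG00000036478, mm9 chromosome 10, 96079635 to 96085447, plus strand) fell from 606, 515 and 628 scaled TPM ex vivo to 188, 228 and 206 after stimulation in WT, without overlap. It fell by 1.48 on the log2 scale (SE 0.14, adjusted p 2.65e-05 by limma), or 2.80-fold, the largest change among the 9 genes tested. In cKO it went from 591, 441 and 535 to 173, 205 and 163, and fell by 1.53 (SE 0.14, adjusted p 1.59e-05). It was called in both genotypes under all 9 alternative settings and in all 12 leave-one-out fits, but the value shrank with quantile normalization to -0.62 in WT and -0.76 in cKO.

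Ccnd2 fell from 108, 86.9 and 107 scaled TPM ex vivo to the 37.0 to 49.3 given above in WT, by 1.22 on the log2 scale (SE 0.15, adjusted p 0.000138 by limma). In cKO it went from 91.3, 84.6 and 95.2 to 54.5 to 77.7, a smaller fitted fall of 0.41 (SE 0.15) at an adjusted p of 0.0476, and this call was fragile: 5 of 12 leave-one-out fits kept it, and omitting cKO stimulated 3 gave 0.269. The call was also lost without WT ex vivo 1, WT ex vivo 3, cKO ex vivo 1, cKO ex vivo 2, cKO ex vivo 3 or WT stimulated 1, and quantile normalization gave a rise of 0.16 (adjusted p 0.285). Of the 9 alternative settings 4 kept the call. Scaling by the median of ratios, deposited TPM, the replicate number as a block and only the groups compared also lost it. Ccnd3 fell in both genotypes, from 60.6, 54.5 and 71.8 to 26.1 to 30.5 in WT, by 1.08 (SE 0.13, adjusted p 0.000136), and from 58.4, 50.5 and 62.9 to 23.9 to 30.6 in cKO, by 0.99 (SE 0.13, adjusted p 0.000204). Stimulated and ex vivo libraries did not overlap for either cyclin in either genotype.

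Cdk6 fell in WT from 28.5, 26.5 and 23.2 to 14.2 to 14.9 scaled TPM, by 0.80 (SE 0.13, adjusted p 0.000893). In cKO it went from 31.2, 25.9 and 27.4 to 20.2 to 29.0, with overlap, a difference of -0.26 (95% interval -0.55 to 0.03) that did not pass (adjusted p 0.125) but was called at 0.0166 without cKO stimulated 1 and at 0.0332 with genes from 1 TPM. Quantile normalization gave 0.05 for it. Cdk4 fell in both genotypes, from 27.4, 25.998 and 38.3 to 19.6 to 21.8 in WT, by 0.54 (SE 0.12, adjusted p 0.00681), and from 30.0, 28.3 and 28.8 to 19.9 to 21.7 in cKO, by 0.47 (SE 0.12, adjusted p 0.0109). Without WT ex vivo 3, the library at 38.3, the Cdk4 difference in WT was -0.36 (adjusted p 0.00954 by limma). The Cdk4 call in cKO was lost without cKO stimulated 3 (adjusted p 0.0591) and with quantile normalization (-0.17, adjusted p 0.249).

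Among the inhibitors, Cdkn1b fell in both genotypes, by 0.61 in WT (SE 0.13, adjusted p 0.00415) and by 0.59 in cKO (SE 0.13, adjusted p 0.00424). With quantile normalization both Cdkn1b calls were lost, at -0.16 in WT (adjusted p 0.156) and -0.03 in cKO (adjusted p 0.749), and the WT call was also lost with genes from 1 TPM and with no filter. Cdkn1a fell in cKO, from 33.9, 25.8 and 29.1 to 18.1, 16.3 and 13.8 scaled TPM, by 0.84 (SE 0.17, adjusted p 0.00275), and this was called under all 9 alternative settings and in all 12 leave-one-out fits. In WT the Cdkn1a libraries overlapped and the difference was -0.20 (95% interval -0.57 to 0.18, adjusted p 0.406). Cdkn2c was the only gene of the 9 with a positive fitted difference in both genotypes, 0.07 (95% interval -0.32 to 0.46) in WT and 0.11 (-0.28 to 0.49) in cKO, neither called, and both turned negative with genes from 1 TPM (-0.15 and -0.38). Rb1 differed by -0.21 in WT (SE 0.08, adjusted p 0.0508), just outside the threshold and called at 0.0339 without WT stimulated 3 and at 0.0409 without cKO stimulated 2, and fell by 0.30 in cKO (SE 0.08, adjusted p 0.00858). The Rb1 call in cKO was lost with quantile normalization (-0.08, adjusted p 0.467) and with only the groups compared (adjusted p 0.0517). With deposited TPM the Cdk4, Cdk6 and Cdkn1b calls in WT were lost, at adjusted p-values of 0.3003, 0.0979 and 0.208, and the Cdk4 call was also lost with genes from 1 TPM and with no filter.

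In cKO, 7 of the 9 genes were thus called lower after stimulation, where 26.5% of all genes tested were, and none higher, where 17.3% were. The members' median difference was -0.47, against -0.01 over all genes tested. With deposited TPM 3 genes (Btg1, Ccnd2 and Ccnd3) were called lower in WT, and with quantile normalization 3 (Btg1, Ccnd3 and Cdkn1a) were called lower in cKO. The genotype and stimulation comparisons share libraries, so their values are not independent of each other.

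**Figure D4:**
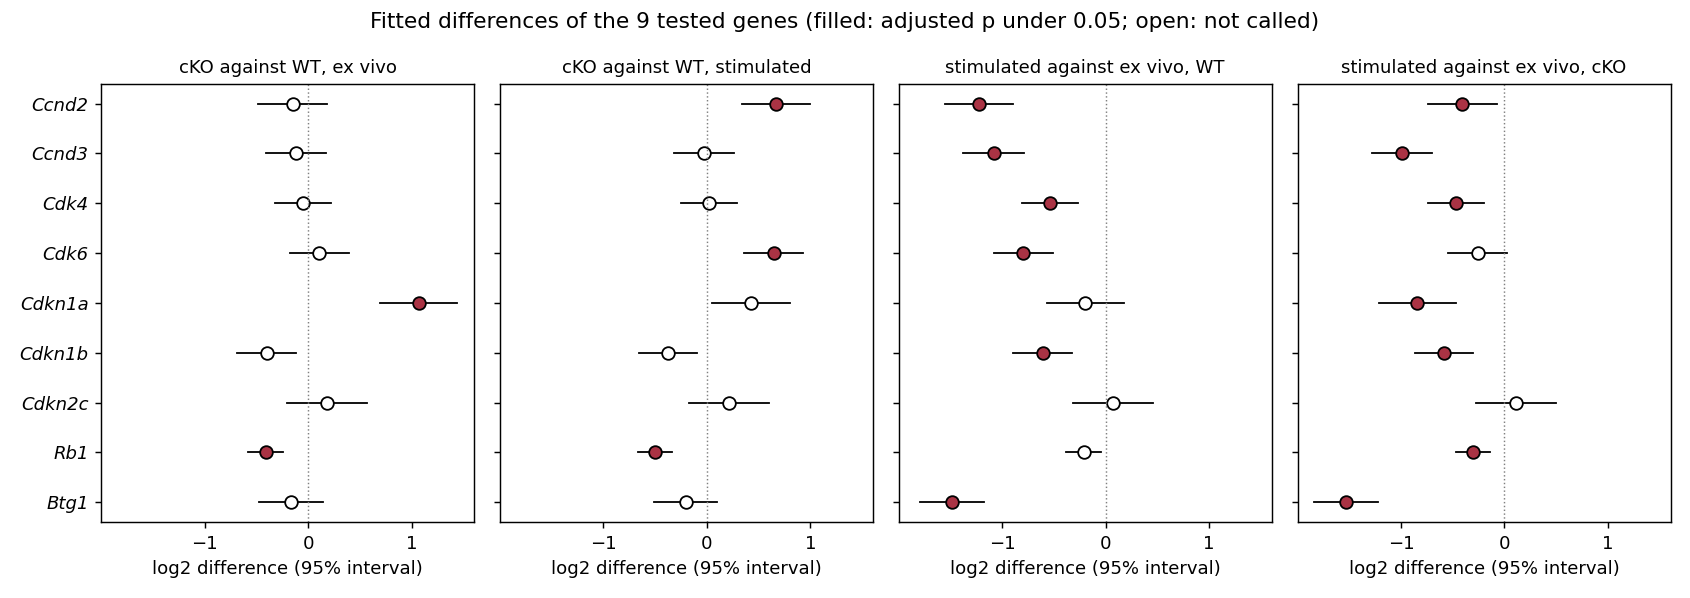
Fitted differences (horizontal axis, log2) of the 9 tested genes in the 4 comparisons, with 95% intervals. Filled points had an adjusted p under 0.05. Btg1 and Ccnd3 lay near -1.5 and -1 in both stimulation panels, while Ccnd2 stood at -1.22 in WT and -0.41 in cKO.

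Whether the response to stimulation differed between genotypes was tested as an interaction. By limma 0 of the 9 genes were called, where 1.1% of all genes tested were called in either direction. An unadjusted p under 0.05 was reached by 3 of the 9 and by 1925 of all 13318 genes tested. Ccnd2 had an interaction of 0.82 (SE 0.21, 95% interval 0.35 to 1.28, adjusted p 0.101), Cdk6 of 0.54 (SE 0.18, adjusted p 0.203) and Cdkn1a of -0.64 (SE 0.24, adjusted p 0.247). The Ccnd2 interaction was called by voom on the reads (adjusted p 0.0213), by quantile normalization (0.0100) and without cKO stimulated 3 (0.0437), and it was not called under the 6 other alternative settings. For Btg1, Ccnd3, Cdk4, Cdkn1b, Cdkn2c and Rb1 the interaction lay between -0.09 and 0.09, and with deposited TPM, where the median gene shifted by -0.48, between -0.60 and -0.42. A genotype difference of Ccnd2 or Cdk6 that is particular to stimulated cells was therefore not shown at the threshold used.

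The other genes of the pathway give the setting. Of 30 further G1/S regulators 24 were tested, and ex vivo only Mnat1, a subunit of the CDK-activating kinase, was called, lower in cKO by 0.48 (SE 0.10, adjusted p 0.0184). After stimulation only Rbl2, the gene of the pocket protein p130, was called, lower in cKO by 0.56 (SE 0.07, adjusted p 0.000649). Stimulation in WT called 6 of the 24 lower and 2 higher, and in cKO 7 lower and 4 higher, where 19.3% of all genes tested were lower and 12.7% higher in WT, and 26.5% and 17.3% in cKO. The lower ones included other BTG/TOB family genes. Tob1 differed by -1.98 in WT and -2.22 in cKO, and Btg2 by -1.43 in both. E2f2, an E2F transcription factor gene, fell by 0.74 in WT and fell by 1.15 in cKO. Ccnd1, the third D-type cyclin, stayed under 5 TPM and was not tested.

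Of 27 S phase genes 24 were tested. In both genotype comparisons only Rfc3, a clamp loader subunit, was called, higher in cKO by 0.48 ex vivo and 0.45 after stimulation. After stimulation 9 were called lower and 1 higher in WT, and 17 lower and none higher in cKO, with Pcna, the replication clamp gene, lower by 2.06 in WT and 1.94 in cKO. Of 18 mitosis genes 17 were tested, 4 of which were lower in WT after stimulation and 14 in cKO, among them Kif11, a spindle motor gene, lower by 0.54 and 1.27. Of all genes tested 19.3% were lower after stimulation in WT and 26.5% in cKO, while 12.7% and 17.3% were higher. Ex vivo Kif11 was higher in cKO by 0.64 (adjusted p 0.0377), and no other mitosis gene was called between genotypes. The medians for stimulation in cKO were -0.56 for S phase and -0.67 for mitosis genes, against -0.01 over all genes tested, and both were negative under all 9 alternative settings. In WT they were -0.31 and -0.13, and the latter was 0.04 with deposited TPM. The mitosis median ex vivo was 0.42 above 0 in cKO against WT, where the fit reported called 1 of the 17 higher. Voom on the reads called 7 of them, and the fit of only the groups compared called 4. With genes from 1 TPM, no filter, 0.1 added in place of 1, deposited TPM or quantile normalization 0 were called. Over all genes voom called 767 higher, against 482 in the fit reported.

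All 11 upstream regulators listed were tested. Klf2, a transcription factor gene known to maintain T cell quiescence, was lower in cKO ex vivo by 1.44 (SE 0.15, adjusted p 0.000483) and fell with stimulation by 3.60 in WT and 2.69 in cKO. After stimulation Smad3, a TGF-beta signal transducer gene, was lower in cKO by 0.73 (adjusted p 0.00416). Stat5a and Stat5b, which carry IL-2 signals, were higher after stimulation by 1.02 and 0.72 in WT and by 0.96 and 0.86 in cKO, and Foxo1, a quiescence factor gene, fell by 0.88 with stimulation in cKO.

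Because Cdkn1a is a classical target of p53, 14 other p53 targets were listed beside it, and 13 were tested. Ex vivo 2 were higher in cKO and 1 lower, against 3.62% and 1.67% of all genes tested. Sesn2 was higher by 0.45 (adjusted p 0.0321 by limma) and Trp53inp1 by 0.51 (adjusted p 0.0406). Plk2 was lower by 0.51 (adjusted p 0.0134), and the list's median was -0.04 against -0.01 over all genes. With genes from 1 TPM, no filter, deposited TPM or only the groups compared, 0 were higher. With the replicate number as a block 1 was, and under the other alternative settings 2 were. In the comparison after stimulation none was higher in cKO and Trp53inp1 was lower by 0.68, against 3.3% and 3.63% of all genes tested. After stimulation 4 of the 13 were higher and 5 lower in WT, against 12.7% and 19.3% of all genes tested, and 5 were higher and 7 lower in cKO, against 17.3% and 26.5%, such as Pmaip1, at -1.34 and -1.64, and Aen, at 0.82 in both.

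The 7 genes listed as checks of stimulation did not all rise at 4 h. Irf4 (1.56 in WT, 0.95 in cKO), Egr2 (1.48 and 1.31) and Myc (0.61 and 0.64), a growth factor response gene known to induce D-type cyclins and Cdk4, were higher, while Cd69, an early activation marker, was lower by 1.36 in WT and 1.71 in cKO. Nr4a1 was lower in WT by 0.55 (adjusted p 0.0307 by limma), and Il2ra was higher in cKO by 0.65. In WT 3 of the 7 were called higher and 2 lower, against 12.7% and 19.3% of all genes tested. In cKO 4 were higher and 2 lower, against 17.3% and 26.5%. Ex vivo Irf4 was higher in cKO by 1.12 and Nr4a1 lower by 0.78. Among the 7 Treg markers Foxp3 and Il2ra were higher in stimulated cKO than in stimulated WT libraries, by 0.96 and 0.80 (adjusted p 0.00847 and 0.00972). Of all genes tested 3.3% were called higher there. With deposited TPM 0 of the 7 were called, with only the groups compared 1, and with quantile normalization 5. With genes from 1 TPM or with no filter, no gene of any list described here was called between genotypes.

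**Figure D5:**
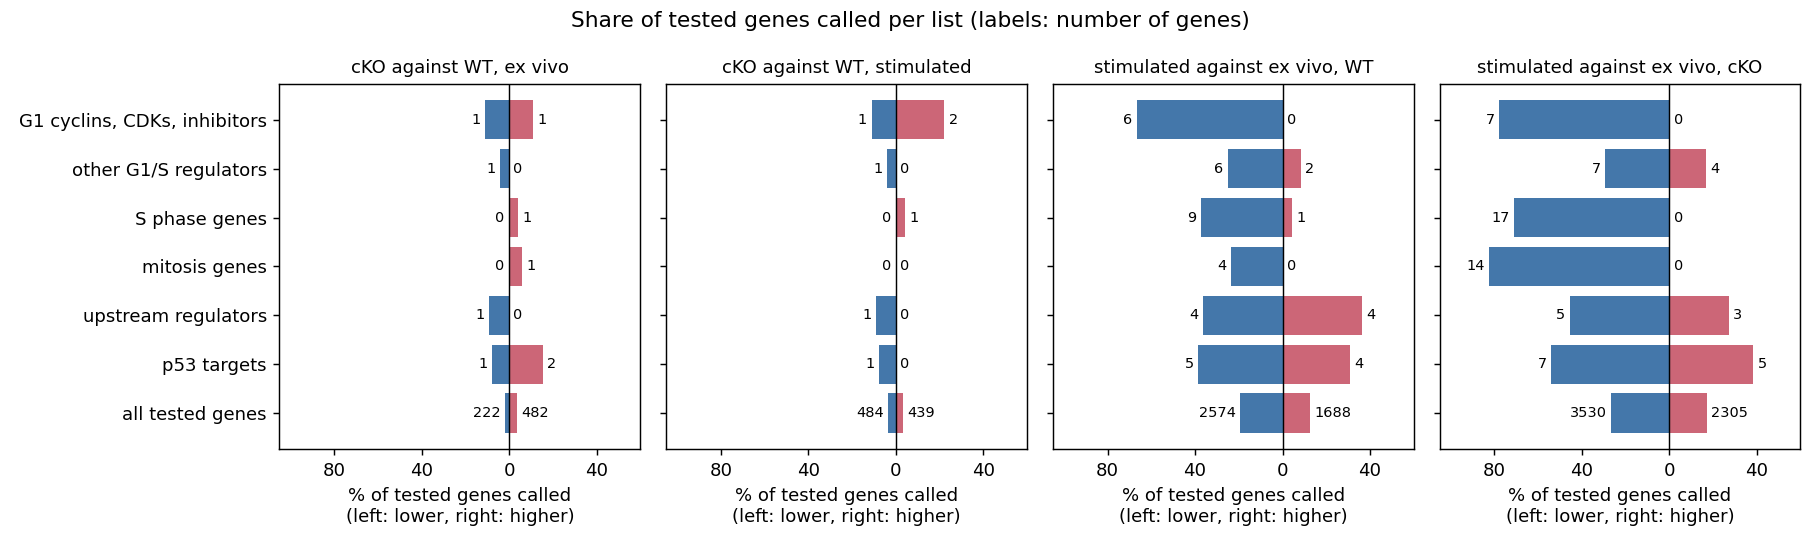
Percent of tested genes called lower (left) and higher (right) in each list and over all 13318 tested genes, in the 4 comparisons, with gene numbers as labels. After stimulation 6 of 9 G1 genes were lower in WT and 7 of 9 in cKO, and 4 of 17 mitosis genes were lower in WT and 14 of 17 in cKO.

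Patterns over the 12 libraries grouped some members together. Pearson correlations of scaled log2 values, given as a description of points that share groups and depth, were 0.97 for Btg1 with Ccnd3, 0.94 for Ccnd3 with Cdk4 and 0.89 for Ccnd2 with Cdk6, while Cdkn1a correlated at 0.06 with Cdkn1b and at -0.40 with Rb1. The genes most like each member, over the same 12 libraries, were Hexim1, Pdcd4 and Slc38a2 for Btg1 (0.99 to 1.00), Lta, Arid5a and Mboat1 for Ccnd2 (0.96), Kpna1, Nlrc5 and Adam19 for Cdk6 (0.96 to 0.97), Tnfsf11, Ppp1cc and Gm16132 for Cdkn1a (0.94) and Lef1, Pacsin1 and Fam113b for Rb1 (0.95 to 0.96). For Ccnd3 they were 1190002H23Rik, Maff and Os9 (0.99), for Cdk4 7SK, D230037D09Rik and Sep15 (0.96), and for Cdkn1b Rplp0, SCARNA21 and Rpl39 (0.98 to 0.99). For Cdkn2c, at between 100 and 257 reads per library, they were Snrnp25 (0.90) and 2 gene models named U6 (0.90 and 0.86).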

How the data were processed

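Per the labels and the study's methods, the authors depleted ribosomal RNA, made stranded libraries, sequenced 51 bp paired ends, aligned them to mm9 with STAR 2.6.0c and counted them on Ensembl exons by strand with HTSeq 0.6.1. In the table used here the authors deposited TPM, an expression signal per gene and library, and log2 values to which the value of 1 read had been added. Reads recovered from the pair of columns were whole within 0.1 for 99.9993% of values and gave the depth. The authors' table of their own tests (fold changes, F, p-values and FDR of 6 comparisons) was not used.

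TPM were divided by trimmed-mean factors (30% of M-values and 5% of A-values trimmed), 1 was added and log2 taken. The 13318 genes that reached a mean of 5 TPM in any group were fitted with limma 3.58.1 in R 4.3.3, all 12 libraries at once, with group as the only term and a mean-variance trend. Two-sided p-values were adjusted over all genes tested (Benjamini-Hochberg) and called under 0.05. Fold changes are on the log2(scaled TPM + 1) scale and understate changes of low genes. The members, the lists, the 5 TPM minimum and the tests were chosen with earlier results of these data known, including that 5 TPM gives more genotype calls than 1 TPM. Named genes were the members, Ikzf1, Gm10800, at most 5 called genes of smallest adjusted p per list and comparison, and the 3 genes most correlated with each member. Xist, Ccnd1 and the receptor genes were added after values were seen. Replicates were separate mice per the labels. Same-numbered libraries of different groups correlated at -0.21 to 0.26 in their deviations from group means, so the numbers were not taken as pairs. Gene positions are from GENCODE vM1 on mm9. The fit was tested on simulated data. Files were read with Python 3.11.15.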

Additional observations from a re-analysis of the deposited data

Results flagged for a closer look

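No member was called for an interaction of genotype and stimulation, but 2 genes listed beside them were, so that their genotype effects differed between ex vivo and stimulated cells. Rbl2, a pocket protein gene related to Rb1, had an interaction of -0.55 (log2, SE 0.09, adjusted p 0.0205 by limma). It differed by -0.02 between genotypes ex vivo and was lower in cKO by 0.56 after stimulation. This call held in 3 of 12 leave-one-out fits (adjusted p 0.0741 without WT ex vivo 3) and under 4 of 8 alternative settings, with an adjusted p of up to 0.623.

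Trp53inp1, a p53 target gene, had an interaction of -1.18 (SE 0.18, adjusted p 0.0132). It was higher in cKO by 0.51 ex vivo and lower in cKO by 0.68 after stimulation. The call was kept in all 12 leave-one-out fits and under 6 of 8 alternative settings, and it was lost with genes from 1 TPM and with no filter, at an adjusted p of up to 0.436.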

How the results depend on the processing

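Of the 396 values of members under alternative settings other than leaving out a library, 358 stayed on the same side of the threshold, of which 323 kept their sign and 35 changed it without being called in either fit. A further 30 lost a call and 7 gained one, and 1 called value reversed: Ccnd2 for stimulation in cKO was 0.16 with quantile normalization. For the genotype effect ex vivo, 2 members were called in the fit reported, 0 with genes from 1 TPM and 0 with no filter, and 1 with deposited TPM. Over all genes the same count was 704, and 57, 56 and 273 under those settings, and 1203 by voom. For the genotype effect after stimulation, 3 members became 0, 0 and 1, and 923 genes became 68, 68 and 306, with 1579 by quantile normalization and 553 with only the groups compared. For stimulation in WT, 6 members became 3 with deposited TPM, and 4262 genes became 1838 from 1 TPM, 1694 with no filter and 1943 with deposited TPM. For stimulation in cKO, 7 members became 3 with quantile normalization. For the interaction, 0 members became 1 with quantile normalization and 1 with voom, and 147 genes became 0, 0 and 67 from 1 TPM, with no filter and with deposited TPM, 392 with quantile normalization and 395 with voom. The cause of these changes was not tested, beyond the shifts of the median given above.

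Of the genes called ex vivo, 68.5% were higher in cKO in the fit reported and 95.2% with deposited TPM, and after stimulation 47.6% and 22.5%. The share that rose with stimulation in WT was 39.6%, 60.5% with deposited TPM, 51.8% with quantile normalization and 16.5% from 1 TPM, with stimulation in cKO 39.5%, 11.9% with deposited TPM and 12.8% from 1 TPM, and for the interaction 40.8% and 8.96% with deposited TPM.

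Leaving out 1 library at a time gave 1 to 2 members and 324 to 740 genes for the genotype effect ex vivo, 1 to 3 and 398 to 1057 after stimulation, 6 to 7 and 3256 to 4387 for stimulation in WT, 5 to 8 and 4098 to 5992 in cKO, and 0 to 1 and 50 to 203 for the interaction. The gene counts fell more than 1.5 times without WT ex vivo 3 (371) or any of the 3 cKO ex vivo libraries (324 to 453) for the genotype effect ex vivo, and without any of the 3 WT stimulated libraries (398 to 580), cKO stimulated 1 (447) or cKO stimulated 3 (602) for that after stimulation. For the interaction they did so in the 8 omissions of WT ex vivo 2 or 3, cKO ex vivo 1 or 3, any WT stimulated library, or cKO stimulated 1, at 50 to 92 genes. With the replicate number as a block, 65 genes were called for the interaction, 516 and 630 for the genotype effects ex vivo and after stimulation, and the Ccnd2 fall in cKO was lost (adjusted p 0.0614). No other call of a member changed with the block.

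The shallowest library was in the stimulated cKO group, and depth overlapped between the stimulated groups, at 8208659 to 10930376 reads in cKO and 10045424 to 13440658 in WT. The 3 libraries a group limit the smaller differences. Cdkn2d was too low to be read in either direction.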
